A study of Arabidopsis thaliana with 9 samples.

Results

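A set of 123 Arabidopsis thaliana genes was examined that stood higher in seedlings given flg22 than in mock seedlings and stayed near the mock level in seedlings given 2'-aminoacetophenone (2-AA). They were chosen by their measured levels out of 32833 loci. Levels are in CPM, read counts divided by the library total and brought to a common scale, with TMM factors that adjust the totals for composition. A member had a flg22 mean of at least 2 CPM and at least 1.5 times the mock mean, a 2-AA mean between 0.8 and 1.25 times the mock mean, and all 3 flg22 libraries above the other 6. These conditions used the values of all 9 libraries in all 3 groups. The members' levels and fold changes below are therefore descriptions and carry no test.

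The libraries came from wild-type whole seedlings of ecotype Col-0. The groups were flg22 at 100 nM, 2-AA at 200 uM and mock, which the labels describe as not treated, with 3 libraries each. All seedlings shared the same growth, first on solid and then in liquid medium, and no mutant or transgene was used. The sources used here do not give the time between treatment and harvest, the hour of harvest, or what the mock seedlings received in place of an agent.

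The peptide flg22 is a stretch of bacterial flagellin that plants perceive at the cell surface through the receptor kinase FLS2 and its co-receptor BAK1. 2-AA is a small aromatic ketone that the bacterium Pseudomonas aeruginosa releases as a quorum sensing signal. Downstream of flagellin recognition, calcium and kinase signals act within minutes, and salicylic acid (SA) accumulates later and drives a further set of genes through the co-activator NPR1 and TGA and WRKY transcription factors. PR1 is the standard marker of that later, SA-dependent output.

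Library totals lay between 26644996 and 33195007 counts, so that 0 counts allowed up to 0.0904 to 0.113 CPM, taking 3 counts as the floor. One library of each group, flg22 2, 2-AA 2 and mock 3, had a higher share of chloroplast-encoded counts than the other 6 (0.0743, 0.241 and 0.098%, against 0.0211 to 0.0281%). When these 3 were left out, the same conditions chose 147 genes, of which 71 were among the 123. Markers of leaf and root were present in every group, and the 3 leaf and chloroplast markers summed to 17800 to 19200 CPM in flg22 libraries, 14900 to 16800 CPM in 2-AA libraries and 20300 to 20900 CPM in mock libraries. The 3 went different ways: with flg22 and with 2-AA, each against mock, the log2 fold change was -0.05 and -0.23 for RBCS1A (edgeR adjusted p = 0.514 and 0.00314), 1.14 and 0.64 for CA1 (adjusted p = 1.77e-09 and 1.75e-07), and -2.98 and -3.79 for LHCB1.1 (adjusted p = 2.24e-05 and 2.9e-06). The shoot meristem marker WUS was at or near 0 throughout. Clock genes were far from mock in both treatments. Of 10 tested, 6 were called higher and 3 lower with flg22, and 6 higher and 3 lower with 2-AA. Over all genes tested, 29.8% were called higher and 29.4% lower with flg22, and 31.2% and 31.1% with 2-AA. TOC1, an evening gene, averaged 231 CPM with flg22, 237 CPM with 2-AA and 29.9 CPM in mock, and CCA1, a morning gene named after its values were seen, 5.02, 2.87 and 141 CPM in the same groups. Between flg22 and 2-AA the clock genes' adjusted p ran from 0.0992 to 0.836. A difference in hour of harvest between the mock and the treated seedlings cannot be told apart from treatment in any comparison with mock. In whole-seedling RNA, more cells of a type and more RNA per cell cannot be told apart.

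Few of the genes that stood higher with flg22 were chosen. In all, 3295 loci had a flg22 mean of at least 2 CPM and at least 1.5 times the mock mean. In 3107 of them (94.3%) the 2-AA mean lay above the upper end of the band, in 36 (1.09%) below it and in 152 (4.61%) inside it. Of the 3295, 2738 (83.1%) also had a 2-AA mean at least 1.5 times the mock mean. Requiring all flg22 libraries to lie above the other 6 left 123 genes and removed 29. Over the 21059 genes tested, flg22 libraries lay above the other 6 for 6.49%.

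**Figure D1:**
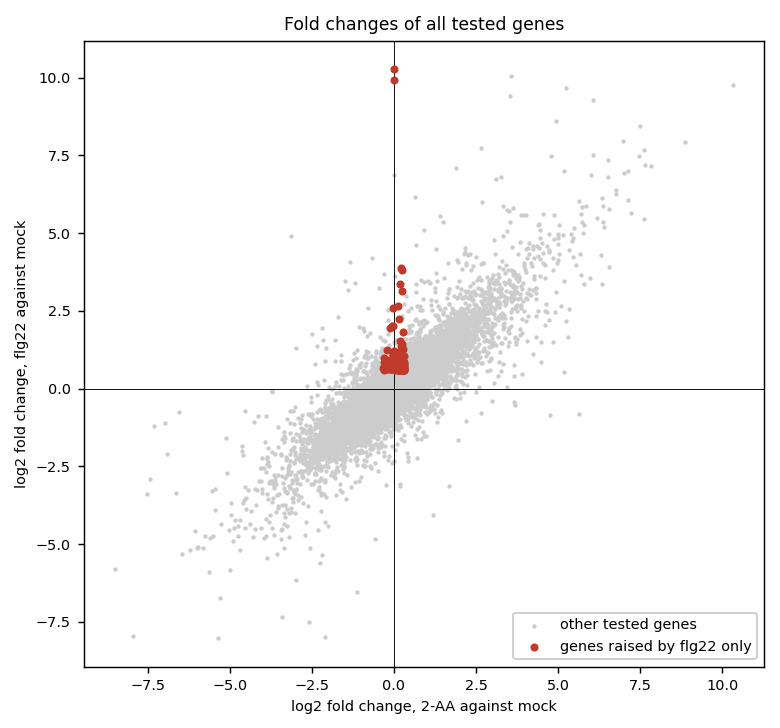
log2 fold change of 2-AA against mock (x axis) and of flg22 against mock (y axis) from edgeR, 1 point a gene tested, with the 123 members in red; both axes use the same mock libraries, so the slope of the cloud is not read. The members form a narrow column near 0 on the x axis and above 0 on the y axis because the choice placed them there, with AT4G19750 and AT3G28510 at the top (fitted values of 10.28 and 9.91 against a mock level of 0, which are no bounds).

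Most members differed from mock by a modest factor. The flg22 mean was 1.5 to 14.6 times the mock mean over the 121 members with a mock level above 0, with a median of 1.69, and 95 members lay under 2. The other 28 reached at least 2 times the mock mean, 10 of them at least 4 times. The 2-AA mean was above the mock mean in 86 members and at or below it in 37, with a median ratio of 1.12. In CPM, which is not adjusted for gene length, flg22 means ran from 2.04 to 4690 with a median of 17, and 48 members were under 10 CPM. The members' counts together made up 1.12 to 1.2% of a flg22 library, 0.712 to 0.731% of a 2-AA library and 0.648 to 0.67% of a mock library.

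The name of the set goes by the level band and not by a test. All 123 members passed the filter on low counts and were fitted with edgeR across the whole table. Against mock, 122 members were called higher with flg22, where 29.8% of all genes tested were called higher, 29.4% lower and 59.2% in either direction; the exception was AT5G65320, a basic helix-loop-helix factor at 2.15 CPM with flg22, 1.18 CPM with 2-AA and 1.37 CPM in mock. With 2-AA against mock, 24 members were called all the same, 21 higher and 3 lower, where 62.2% of all genes were called in either direction, 31.2% higher and 31.1% lower. With 1 library left out, between 15 (without mock 2) and 28 (without 2-AA 2) members were called with 2-AA. Over all genes, 12060 and 12209 were called in those fits. Without the library of highest chloroplast share in each group 30 members were called, and 11738 over all genes. Against 2-AA, 99 members were called higher with flg22, where 7.89% of all genes were called higher, 7.86% lower and 15.8% in either direction. These counts follow from the choice of members and are read no further. In 75 members all 3 held together, namely higher with flg22 in both comparisons and not called with 2-AA against mock. The median log2 fold change of the members was 0.76 for flg22 against mock, 0.15 for 2-AA against mock and 0.69 for flg22 against 2-AA, beside 0, 0 and 0.01 over all genes tested.

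The direct comparison of the treatments varied with which libraries were kept. Over all genes, 3317 were called between flg22 and 2-AA in either direction, 1661 of them higher with flg22. With 1 library left out, between 2204 (without 2-AA 2) and 3392 (without mock 3) were called in either direction, and 2361 without 2-AA 1. Of these, 1065, 1681 and 1083 were higher with flg22. Of the members, 99 were called higher in that comparison, and between 79 (without flg22 2) and 101 (without mock 3) with 1 library left out. The member count was 80 without 2-AA 1, 83 without flg22 1 and 84 without 2-AA 2. Without the library of highest chloroplast share in each group, 69 members were called higher. Over all genes 2090 were then called in either direction, 1009 of them higher with flg22.

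Genes of SA output and defence proteins formed a group of 14 members, 6 of them at 2 times the mock mean or more. PR1 (chr2:6241640-6242541, minus strand, in the TAIR10.1 assembly), a small secreted protein and the usual marker of the SA response, had 13.7, 5.34 and 11.5 CPM in flg22 libraries, 0.257, 0.038 and 2.01 CPM in 2-AA libraries, and 0.067, 0.243 and 1.78 CPM in mock libraries. Every flg22 library was above every other library, as the choice required, by a factor of 2.66 at the closest. In the other groups 1 library each, 2-AA 3 and mock 3, held most of the PR1 counts. The log2 fold change of flg22 against mock was 3.88 ± 0.86 (SE), and 5.98 without mock 3. For 2-AA against mock it was 0.20 ± 0.99, 2.31 without mock 3 and -2.12 without 2-AA 3, so the place of PR1 inside the 2-AA band depended on those 2 libraries.

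WRKY70 (chr3:20908711-20910623, minus strand), a transcription factor that promotes SA outputs and restrains jasmonate outputs, had 51.9, 29 and 32.3 CPM in flg22 libraries, 7.65, 9.36 and 10.3 CPM in 2-AA libraries, and 8.51, 11.9 and 7.34 CPM in mock libraries. The choice required the flg22 libraries to lie above the rest, and the lowest of them was 2.43 times the highest of the others. Its log2 fold change was 2.02 ± 0.22 against mock and 2.06 ± 0.22 against 2-AA, while that of 2-AA against mock was -0.04 ± 0.23. WRKY70 was chosen in 9 of 9 repeats that each left out 1 library, PR1 in 4 of 9. WRKY18, a pathogen-inducible relative that acts with WRKY40 and WRKY60, stood nearer its neighbours with 40.2, 43.9 and 35.9 CPM in flg22 libraries, 28.1, 32.5 and 24.8 CPM in 2-AA libraries, and 24.9, 18.8 and 28.8 CPM in mock libraries. Its lowest flg22 library was not far above the highest 2-AA library, and the log2 fold change was 0.73 ± 0.14.

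AT4G33720 (chr4:16182743-16183619, plus strand), which encodes a secreted protein of the same CAP superfamily as PR1, had 71.7, 59.3 and 78.2 CPM in flg22 libraries, 6.3, 12.4 and 31.6 CPM in 2-AA libraries, and 3.64, 3.58 and 45.4 CPM in mock libraries. Its 2-AA 3 and mock 3 libraries were far above the other libraries of their groups, as for PR1. The log2 fold change of flg22 against mock was 2.00 ± 0.75, and 4.28 without mock 3; that of 2-AA against mock was -0.06 ± 0.77, and 2.23 without mock 3. The gene was not called between flg22 and 2-AA. AT5G03350 (chr5:815610-816670, minus strand), a legume-type lectin gene, had 58.4, 21.6 and 28.9 CPM in flg22 libraries, 6.14, 3.65 and 15.8 CPM in 2-AA libraries, and 8.81, 12 and 7.21 CPM in mock libraries. The flg22 libraries were high, most of all flg22 1, and 2-AA 3 was the highest of the rest. It overlaps an annotated gene on the other strand, AT5G03345, and the counting is not stated to use strand.

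AT4G19750 (chr4:10745682-10747127, minus strand), a glycosyl hydrolase gene with a chitinase insertion domain, had 9.94, 2.49 and 2.96 CPM in flg22 libraries and 0 counts in all 2-AA and mock libraries. Against 3 counts over the group, it was at least 154-fold higher with flg22 than with 2-AA and at least 160-fold higher than in mock. The gene was listed in all 3 flg22 libraries, with 460 counts in all. Leaving out flg22 1, the highest of them, the fitted log2 fold change was 9.37 in place of 10.28; with mock at 0 neither is a bound. Similar genes lie close by on the chromosome, so reads could be split between copies.

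**Figure D2:**
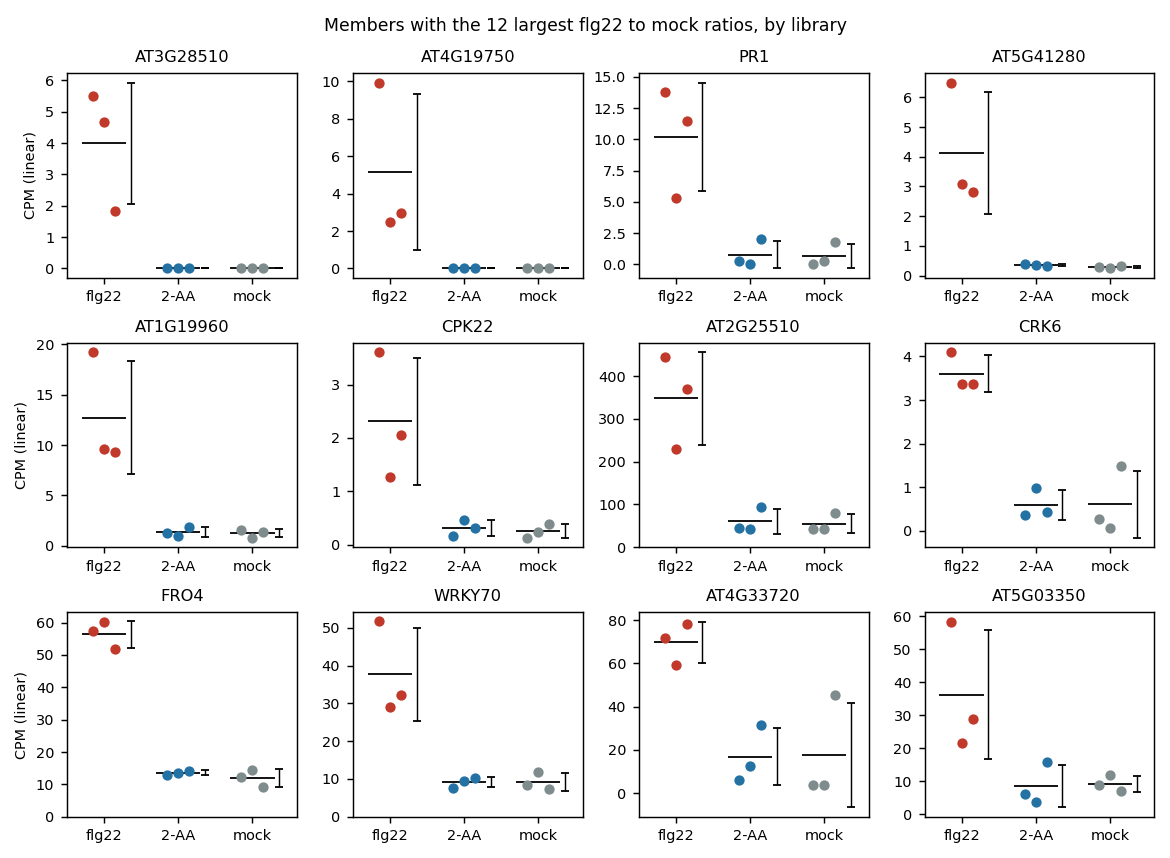
TMM-scaled CPM on a linear axis in each of the 9 libraries for the 12 members with the largest ratio of flg22 to mock; points are libraries 1 to 3 from left to right, the line is the mean and the bar beside it the SD around the mean, with n = 3 in each of flg22, 2-AA and mock, in that order. All flg22 points lie above the points of the other groups because the choice required it. For PR1, CRK6 and AT4G33720 the mock 3 point lies far above mock 1 and mock 2.

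The remaining defence members stood less far from mock. AT2G43550, a small knottin-fold protein gene, averaged 26.5 ± 5.39 CPM with flg22, 11.9 ± 4.02 CPM with 2-AA and 10.3 ± 0.879 CPM in mock (mean ± SD, n = 3 each here and below). CRT3, an endoplasmic reticulum calreticulin needed for the folding of the receptor EFR, averaged 62.2 ± 1.44 CPM with flg22, 46.9 ± 1.22 CPM with 2-AA and 39.4 ± 4.43 CPM in mock and was called with 2-AA too, at a log2 fold change of 0.25 ± 0.07. DOX1, an alpha-dioxygenase of oxylipin metabolism that the reference places among peroxidases, averaged 92.5 ± 13.8 CPM with flg22, 50.5 ± 10.7 CPM with 2-AA and 60 ± 4.8 CPM in mock. AT3G23175, annotated as like a lesion-inducing protein, averaged 15.3 ± 1.96 CPM with flg22, 8.2 ± 1.21 CPM with 2-AA and 10 ± 2.1 CPM in mock. DOX1 and AT3G23175 had 2-AA means under their mock means, CRT3 and AT2G43550 above. The calreticulins CRT1A and CRT1B, which are not members, were lower with flg22 than with 2-AA by log2 fold changes of -0.52 and -0.70 (edgeR adjusted p = 0.000103 and 1.54e-05), and CRT3 stood higher by 0.41 ± 0.07.

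Of the 20 SA response genes tested, 17 were called higher with flg22 against mock and the other 3 were not called, with a median log2 fold change of 1.61. With 2-AA against mock 11 were called higher, 1 lower and 8 not, with a median of 0.66. Of flg22 against 2-AA, 11 were higher, 2 lower and 7 not called, with a median of 0.93. Over all genes tested, 29.8% were called higher and 29.4% lower with flg22 against mock, and 31.2% and 31.1% with 2-AA against mock. Between flg22 and 2-AA, 7.89% were called higher with flg22 and 7.86% lower. The members PR1, WRKY70 and WRKY18 were thus 3 of the 17, and the list was chosen with earlier results of these data known. WRKY54, the close relative of WRKY70, was no member because it was higher in each treatment, by 4.33 with flg22 and 2.32 with 2-AA (adjusted p = 4.31e-08 and 1.69e-05). DMR6, an SA hydroxylase, missed the set by its 2-AA ratio of 1.251, with a log2 fold change of 1.61 with flg22 (adjusted p = 2.81e-07). NPR1, the SA co-activator, was higher with flg22 by 0.87 and with 2-AA by 1.09 (adjusted p = 9.85e-07 and 9.49e-08).

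A further 2 genes of that list, named after their values were seen, were called higher with flg22 than with 2-AA, as PR1 was. PR2, an SA-induced glucanase, was higher with flg22 by 3.47 and lower with 2-AA by -1.50 on the log2 scale, each against mock (adjusted p = 2.6e-06 and 0.0164). WRKY38, an SA-induced WRKY factor, averaged 3.25 CPM with flg22, 0.174 CPM with 2-AA and 0.0668 CPM in mock. PR2 lay under the 2-AA band and WRKY38 above it. The 2-AA and mock levels of WRKY38 were near the floor. It was not called with 2-AA against mock, at a log2 fold change of 1.39 ± 1.09 (edgeR adjusted p = 0.288). The 2 genes of the list called lower with flg22 than with 2-AA were PR5 and WRKY40. PR5 differed by -1.46 between the treatments, and from mock by 0.22 with flg22 and 1.68 with 2-AA (adjusted p = 0.000104, 0.306 and 2.37e-06). For WRKY40 these values were -0.77, 0.51 and 1.28 (adjusted p = 0.0461, 0.0934 and 0.000494). None of the 9 genes of SA and pipecolate synthesis was a member. Of these 9, 5 were called higher and 1 lower with flg22, and 5 higher and 3 lower with 2-AA. The shares over all genes tested were 29.8% higher and 29.4% lower with flg22, and 31.2% and 31.1% with 2-AA.

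**Figure D3:**
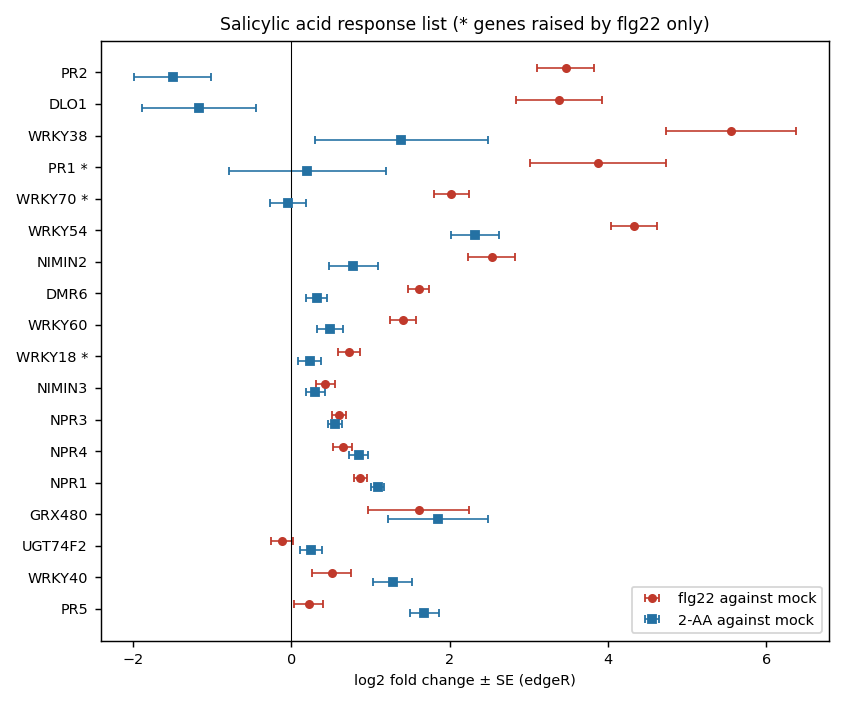
log2 fold change of flg22 against mock and of 2-AA against mock for the SA response genes tested that had a mock level above 0, with bars of 1 SE from edgeR (flg22 circles, 2-AA squares); an asterisk marks the members PR1, WRKY70 and WRKY18. The members sit near 0 for 2-AA by choice, PR2 lies at 3.47 for flg22 and -1.50 for 2-AA, and PR5 at 0.22 and 1.68.

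The 11 receptor and resistance members had a median ratio to mock of 1.97. AT5G41280 (chr5:16509507-16511078, plus strand), annotated as related to receptor-like kinases, had 6.5, 3.07 and 2.83 CPM in flg22 libraries, 0.386, 0.342 and 0.309 CPM in 2-AA libraries, and 0.3, 0.243 and 0.329 CPM in mock libraries. It was the most separated of the members with a level above 0 outside flg22, its lowest flg22 library lying at 7.33 times the highest of the others. CRK6 (chr4:12121369-12124564, plus strand), a cysteine-rich receptor-like kinase, had 4.1, 3.36 and 3.37 CPM in flg22 libraries, 0.353, 0.989 and 0.433 CPM in 2-AA libraries, and 0.267, 0.061 and 1.48 CPM in mock libraries. Mock 3 was the highest of the libraries without flg22, and the log2 fold change of flg22 against mock was 2.59 ± 0.66, and 4.47 without mock 3. That of 2-AA against mock was -0.04 ± 0.73, and 1.84 without mock 3, so the place of CRK6 inside the 2-AA band depended on that library.

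Among 14 cysteine-rich receptor-like kinases tested, all 14 were called higher with flg22 and 12 with 2-AA, with medians of 2.91 and 2.84, and CRK6 was the only member. CRK6 lies in a tandem array of like genes, so its counts may include reads of its neighbours. Of the 12 intracellular receptors and helpers tested, 12 were called higher with flg22 and 12 with 2-AA, and of the 19 cell-surface receptors 16 and 17. None of these was a member. Over all genes tested, 29.8% were called higher with flg22 and 31.2% with 2-AA.

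Leucine-rich repeat (LRR) kinases made up a further part of the receptor members. AT5G49770 (chr5:20222669-20227466, plus strand) had 18.1, 19.6 and 15.7 CPM in flg22 libraries, 6.62, 4.45 and 7.42 CPM in 2-AA libraries, and 4.74, 4.76 and 5.7 CPM in mock libraries. The flg22 libraries were apart from the others, and the ranges of 2-AA and mock overlapped. AT1G07560 had 8.04, 10.3 and 8.79 CPM in flg22 libraries, 4.37, 3.58 and 4.02 CPM in 2-AA libraries, and 4.14, 4.52 and 3.56 CPM in mock libraries, with 2-AA and mock alike in range. AT2G28970, another LRR kinase gene, averaged 5.83 ± 0.992 CPM with flg22, 4.03 ± 0.552 CPM with 2-AA and 3.81 ± 0.59 CPM in mock. AT3G49670, which encodes BAM2, a kinase of CLAVATA-type peptide signalling, averaged 68 ± 3.56 CPM with flg22, 55.7 ± 4.69 CPM with 2-AA and 44.7 ± 3.46 CPM in mock; the 2-AA libraries lay between the other groups and the gene was called with 2-AA at 0.31 ± 0.08. Its relatives BAM1 and BAM3 moved little with flg22, by 0.15 and -0.17 (adjusted p = 0.0376 and 0.0313).

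RLP37, a receptor-like protein with no kinase domain, averaged 6.78 ± 0.519 CPM with flg22, 2.82 ± 0.208 CPM with 2-AA and 3.44 ± 0.315 CPM in mock, with 2-AA under mock. The 4 disease resistance members are intracellular NLR genes. AT2G17050 averaged 2.79 ± 0.73 CPM with flg22, 1.36 ± 0.321 CPM with 2-AA and 1.27 ± 0.214 CPM in mock, and AT2G17060, 6533 bases away on the other strand with 1 annotated gene between, averaged 2.5 ± 0.243 CPM with flg22, 1.09 ± 0.429 CPM with 2-AA and 1.37 ± 0.299 CPM in mock. CW9 averaged 15.5 ± 0.465 CPM with flg22, 10.9 ± 0.697 CPM with 2-AA and 9.01 ± 1.42 CPM in mock. AT4G16920, which lies in a cluster of like genes and overlaps other annotated genes, averaged 6.55 ± 0.817 CPM with flg22, 4.48 ± 0.277 CPM with 2-AA and 3.94 ± 0.45 CPM in mock. In each the lowest flg22 library was above the other 6, by less than in AT5G41280 and CRK6.

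Of the 10 members in signalling, hormones and peptides, CPK22 (chr4:2390307-2392989, minus strand), a calcium-dependent kinase-like gene, had 3.61, 1.26 and 2.05 CPM in flg22 libraries, 0.161, 0.456 and 0.309 CPM in 2-AA libraries, and 0.134, 0.243 and 0.395 CPM in mock libraries. These are low levels: the lowest flg22 library, flg22 2, was still 2.77 times the highest of the rest. GASA1, a small gibberellin-regulated secreted peptide, had 347, 479 and 337 CPM in flg22 libraries, 239, 245 and 196 CPM in 2-AA libraries, and 205, 204 and 169 CPM in mock libraries. The flg22 libraries were all higher, and 2-AA libraries mostly lay a little above mock. CLE20, a CLAVATA3-like signalling peptide, averaged 2.04 ± 0.199 CPM with flg22, 1.01 ± 0.356 CPM with 2-AA and 0.844 ± 0.277 CPM in mock and overlaps an annotated gene on its own strand. RIP4, annotated as a partner of ROP small GTPases, averaged 8.64 ± 0.648 CPM with flg22, 5.98 ± 1.61 CPM with 2-AA and 4.8 ± 0.35 CPM in mock. CBL10, a calcium sensor known for salt tolerance, averaged 24.5 ± 3.21 CPM with flg22, 17.6 ± 0.786 CPM with 2-AA and 14.5 ± 0.939 CPM in mock, and TAA1, a tryptophan aminotransferase of auxin synthesis, averaged 17 ± 0.941 CPM with flg22, 13.1 ± 1.58 CPM with 2-AA and 10.7 ± 1.59 CPM in mock. In these last 3 genes the 2-AA mean was near the upper end of the band.

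The transcription and development group held 7 members. AT1G19960 (chr1:6927736-6928656, plus strand), which the annotation calls a transcription factor, had 19.2, 9.57 and 9.36 CPM in flg22 libraries, 1.25, 0.989 and 1.92 CPM in 2-AA libraries, and 1.57, 0.788 and 1.35 CPM in mock libraries. Its flg22 libraries were at least 4.88 times any other. The other 6 had ratios between 1.52 and 1.72. HEC1, a helix-loop-helix factor of flower and shoot development, averaged 3.51 ± 0.553 CPM with flg22, 1.87 ± 0.313 CPM with 2-AA and 2.04 ± 0.548 CPM in mock. BOP1, a BTB-ankyrin relative of NPR1 that shapes leaf bases, averaged 2.27 ± 0.217 CPM with flg22, 1.14 ± 0.508 CPM with 2-AA and 1.32 ± 0.175 CPM in mock. TIFY8, of the family that includes the jasmonate repressors, averaged 39.7 ± 3.21 CPM with flg22, 28.9 ± 3.56 CPM with 2-AA and 24 ± 2.32 CPM in mock. CGA1, a cytokinin-responsive GATA factor that promotes greening, had 19, 19.6 and 21.9 CPM in flg22 libraries, 15.7, 14 and 13.4 CPM in 2-AA libraries, and 14.2, 13.8 and 9.95 CPM in mock libraries. NF-YA6, a CCAAT-box factor, averaged 7.31 ± 0.771 CPM with flg22, 5.67 ± 1 CPM with 2-AA and 4.82 ± 0.798 CPM in mock.

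The promoters of 3 leading members are shown because they carry more than 1 copy of TGACG, the core word bound by TGA factors; they were picked after the words were counted. Each is the 250 bases upstream of the annotated start, read 5′ to 3′ on the gene's strand from RefSeq (TAIR10.1), with TGACG or its reverse complement CGTCA in capitals. The windows are chr3:20910624-20910873 for WRKY70 and chr5:816671-816920 for AT5G03350, each on the minus strand, and chr1:6927486-6927735 on the plus strand for AT1G19960.
WRKY70: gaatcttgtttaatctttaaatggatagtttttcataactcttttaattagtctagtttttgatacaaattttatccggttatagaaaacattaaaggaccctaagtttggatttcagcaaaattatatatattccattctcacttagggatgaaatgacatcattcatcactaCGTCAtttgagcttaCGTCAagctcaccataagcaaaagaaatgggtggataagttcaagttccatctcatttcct
AT5G03350: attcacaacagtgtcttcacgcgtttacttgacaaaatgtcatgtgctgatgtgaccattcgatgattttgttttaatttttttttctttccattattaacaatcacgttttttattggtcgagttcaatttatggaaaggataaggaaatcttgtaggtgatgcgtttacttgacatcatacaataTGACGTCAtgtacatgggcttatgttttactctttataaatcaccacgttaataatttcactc
AT1G19960: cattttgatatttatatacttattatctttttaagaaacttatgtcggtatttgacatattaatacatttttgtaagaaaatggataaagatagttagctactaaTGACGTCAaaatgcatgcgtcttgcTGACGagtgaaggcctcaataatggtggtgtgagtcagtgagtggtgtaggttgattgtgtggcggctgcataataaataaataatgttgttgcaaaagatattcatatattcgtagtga

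WRKY70 had 2 such words, whose outer ends lay 76 and 61 bases upstream of the start. In AT5G03350 a copy on each strand overlapped to form TGACGTCA, from 63 bases upstream. AT1G19960 had the same palindrome from 145 bases upstream and a further copy from 120.

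Over the whole set the shares lay near those of other genes. TGACG, on either strand, was in 18.7% of the 123 promoters, 25% of the 28 members at 2 times mock or more, 19.2% of 20830 promoters of genes tested and 18.3% of all promoters. More than 1 copy, counting overlapping copies on opposite strands separately, was in 6 of the 123 promoters (4.88%) and in 3.43% of those tested. The W box bound by WRKY factors, TTGACC or TTGACT, was in 25.2% of members' promoters, 28.5% of those tested and 27.8% of all. The G box CACGTG was in 8.13, 7.18 and 5.84%, the GCC box GCCGCC in 3.25, 1.95 and 1.9%, and the evening element AAAATATCT in 1.63, 2.43 and 2.21%. The CAMTA box (ACGCGT or ACGCGG or CCGCGT or CCGCGG) was in 3.25, 4.02 and 3.66%, and the telo box AAACCCTAA in 1.63, 2.01 and 2.67%. A match is a description of the letters and not a bound site.

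**Figure D4:**
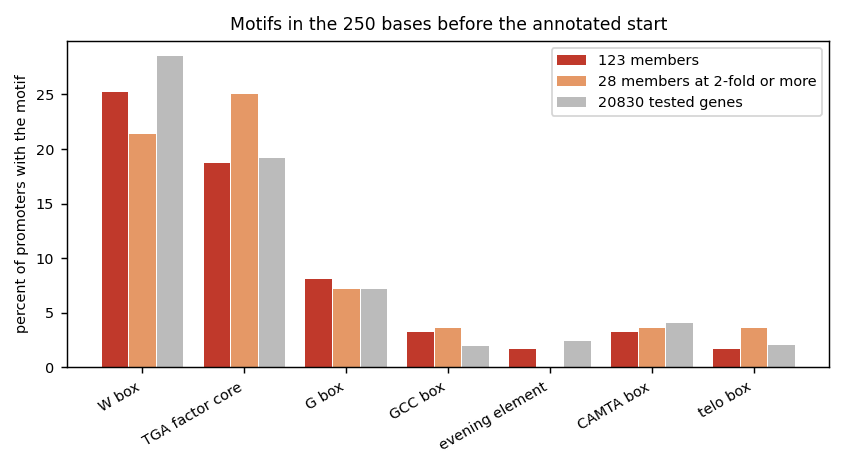
Share in percent (y axis) of 250-base promoters that hold each motif on either strand (x axis), as bars for the 123 members, the 28 members at 2 times mock or more and the 20830 genes tested. The TGACG share is 18.7% for members and 19.2% for genes tested, and the W box share is 25.2% and 28.5%.

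The group of cell wall and secreted enzymes held 20 members, with a median ratio of 1.71 and 3 members at 2 or more. Roles were assigned by hand after the members were known, and the share of such genes over all genes tested was not counted. Some of the 20, such as ELP and AT1G49750 below, are not enzymes. AT4G10550, a subtilase-type secreted protease, averaged 21.5 ± 1.88 CPM with flg22, 10.6 ± 0.851 CPM with 2-AA and 8.8 ± 1.06 CPM in mock. SCPL51, a serine carboxypeptidase-like protein, averaged 19.7 ± 1.74 CPM with flg22, 9.27 ± 0.8 CPM with 2-AA and 8.82 ± 1.05 CPM in mock. LAC7, a laccase of the family that polymerises phenolics in the wall, averaged 20 ± 1.28 CPM with flg22, 9.4 ± 0.975 CPM with 2-AA and 9.48 ± 0.892 CPM in mock. In these 3 genes the lowest flg22 library lay well above the highest of the other 6.

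XYL4, a beta-xylosidase that trims wall xylan, had 199, 249 and 181 CPM in flg22 libraries, 149, 144 and 139 CPM in 2-AA libraries, and 114, 123 and 123 CPM in mock libraries. The 2-AA libraries lay between the other groups without overlap, and XYL4 was called with 2-AA at 0.25 ± 0.10. ELP, an extensin-like protein, had 500.1, 646 and 499.8 CPM in flg22 libraries, 321, 305 and 359 CPM in 2-AA libraries, and 348, 361 and 357 CPM in mock libraries. Its 2-AA libraries reached down below the mock libraries. AT1G49750, an LRR protein gene without a kinase, had 144, 108 and 133 CPM in flg22 libraries, 68.3, 65.2 and 73.4 CPM in 2-AA libraries, and 63.3, 65.8 and 66.1 CPM in mock libraries, with 2-AA and mock close together. AT1G09750, an aspartyl protease gene, averaged 156 ± 12.8 CPM with flg22, 87.7 ± 9.84 CPM with 2-AA and 101 ± 4.22 CPM in mock, and AT4G23820, a pectin lyase-like gene, 65.2 ± 4.95 CPM with flg22, 33.2 ± 2.22 CPM with 2-AA and 41.4 ± 1.11 CPM in mock. These last were 2 of the 3 members called lower with 2-AA, at -0.21 ± 0.09 and -0.33 ± 0.07; the third was AT3G45730, a protein of unknown role, at -0.26 ± 0.10.

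AT5G22500 encodes FAR1, a fatty acyl reductase that makes alcohols of suberin. It had 16.1, 15.4 and 15.6 CPM in flg22 libraries, 13.1, 11.4 and 9.87 CPM in 2-AA libraries, and 11.1, 9.37 and 10.3 CPM in mock libraries. The flg22 libraries varied little and the others were lower. Of the 11 suberin and Casparian strip genes tested it was 1 of 2 called higher with flg22 against mock, with 7 called lower and a median log2 fold change of -1.05. With 2-AA against mock 2 were called higher and 4 lower, with a median of -0.18. Over all genes tested, 29.8% were called higher and 29.4% lower with flg22, and 31.2% and 31.1% with 2-AA. FAR5 and CYP86A1, which act in the same pathway, were lower with flg22 by -1.87 and -1.36 (adjusted p = 6.08e-05 and 4.78e-05). They were lower with 2-AA as well, by -1.50 and -0.77 (adjusted p = 0.000291 and 0.00322), and were not called between the treatments (adjusted p = 0.444 and 0.0602). The root hair markers COBL9 and EXPA7 were lower with flg22 too, by -0.96 and -0.99 (adjusted p = 0.00288 and 0.000617), and differed from mock by -0.81 and 0.06 with 2-AA (adjusted p = 0.00792 and 0.783). The 3 root markers summed to 1270 to 1630 CPM in flg22 libraries, 1610 to 1800 CPM in 2-AA libraries and 1780 to 2100 CPM in mock libraries, and none was at 0. The 2 root hair markers summed to 8.85 to 13.3 CPM with flg22, 15.9 to 21.6 CPM with 2-AA and 15.8 to 25.1 CPM in mock. The part of root cell content in the values of the wall and suberin genes was not tested.

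The 11 photosynthesis, plastid and photorespiration members lay close to the threshold, with ratios from 1.5 to 1.78 and a median of 1.52. With 2-AA against mock 7 of them were called as well, all of them higher. Of all genes tested, 31.2% were called higher with 2-AA and 62.2% in either direction. RBCS2B (chr5:15380907-15382071, minus strand), a small subunit of Rubisco, had 4461, 5164 and 4447 CPM in flg22 libraries, 3153, 3252 and 2982 CPM in 2-AA libraries, and 2952, 3045 and 2816 CPM in mock libraries. All flg22 libraries were higher, and 2-AA and mock overlapped. Of its relatives, RBCS3B was higher with flg22 by 0.42 (adjusted p = 6.63e-06), while RBCS1A and RBCS1B differed by -0.05 and -0.03 (adjusted p = 0.514 and 0.698). RBCS1B, RBCS2B and RBCS3B are tandem near-identical copies, so reads may be split among them.

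LHCB4.3, a minor antenna protein of photosystem II, had 157, 147 and 169 CPM in flg22 libraries, 108, 105 and 108 CPM in 2-AA libraries, and 89.5, 79.7 and 96.8 CPM in mock libraries. The 2-AA libraries stood between the other groups without overlap. Its relatives were lower with each treatment. LHCB4.1 differed from mock by -0.21 with flg22 and -0.26 with 2-AA (adjusted p = 0.0129 and 0.00268), and LHCB4.2 by -2.74 and -2.80 (adjusted p = 8.45e-09 and 4.83e-09). AT1G11860, the T-protein of glycine cleavage in photorespiration, had 1368, 1505 and 1369 CPM in flg22 libraries, 1012, 1000.4 and 1016 CPM in 2-AA libraries, and 947, 935 and 911 CPM in mock libraries, with 2-AA slightly above mock. AT2G28605, a PsbP-family gene, averaged 35.6 ± 1.7 CPM with flg22, 29.4 ± 2.48 CPM with 2-AA and 23.7 ± 0.9 CPM in mock, and EMB3003, a plastid dehydrogenase subunit, averaged 127 ± 8.41 CPM with flg22, 105 ± 5.48 CPM with 2-AA and 84.4 ± 3.45 CPM in mock. These 2 were chosen in only 3 of 9 repeats that left out 1 library. Beside this group, the leaf and chloroplast markers (3 of 3 present) summed lower with flg22 than in mock at the values given above, with CA1 higher, LHCB1.1 lower and RBCS1A not called, and their part in these members' values was not tested. The part of the hour of harvest, on which the clock genes given above bear, was not tested either.

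**Figure D5:**
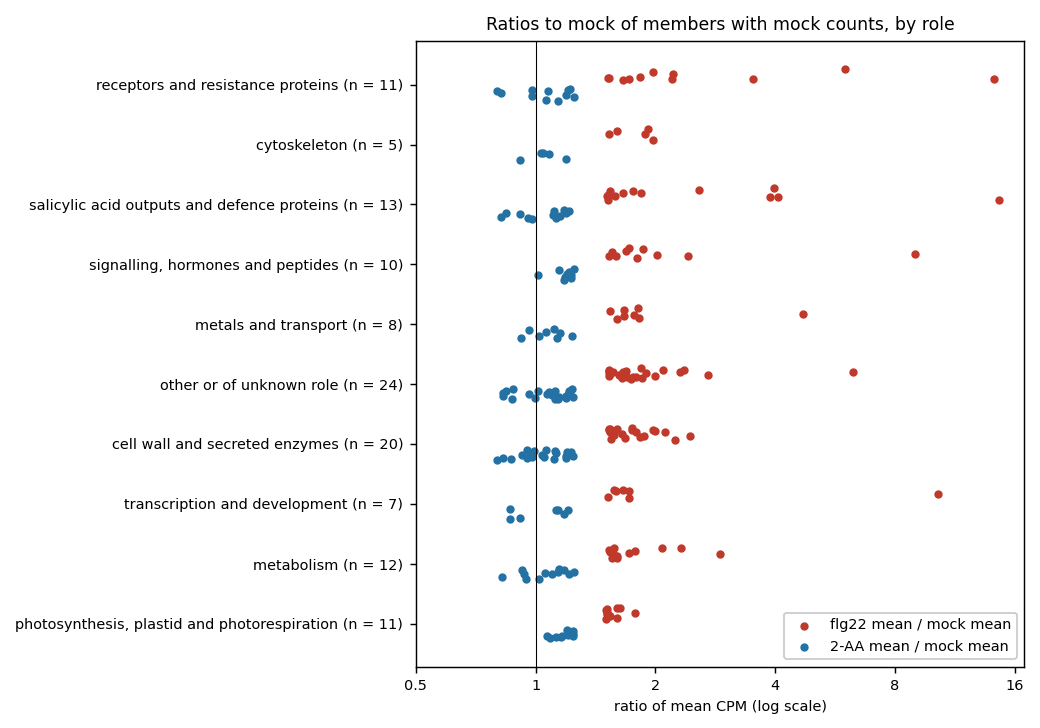
Ratio of the flg22 mean (red) and of the 2-AA mean (blue) to the mock mean, on a log axis, for each of the 121 members with a mock level above 0, by role, 1 point of each colour a gene. In flg22 the highest ratio is 14.2 for receptors, 14.6 for SA outputs, 10.3 for transcription and 8.98 for signalling. It is 6.3 for other roles and 4.71 for metals, and each of these is the value of a single gene. The photosynthesis group stays between 1.5 and 1.78. Over all members of a group, the medians run from 1.52 (photosynthesis) to 1.97 (receptors).

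Metal and transport genes gave 8 members, with 1 far from the rest. FRO4 (chr5:8097978-8101330, minus strand), a metal reductase of the root surface, had 57.3, 60.1 and 51.9 CPM in flg22 libraries, 12.8, 13.6 and 14.3 CPM in 2-AA libraries, and 12.3, 14.6 and 9.09 CPM in mock libraries. The flg22 libraries were even, and the lowest was 3.56 times any other. The log2 fold change was 2.23 ± 0.14 against mock and 0.17 ± 0.14 for 2-AA against mock. Its tandem neighbour FRO5 went the other way, averaging 27.8 CPM with flg22, 40.9 CPM with 2-AA and 69.7 CPM in mock, a log2 fold change with flg22 of -1.33 (adjusted p = 0.000201). Since the copies are alike, how reads were shared between FRO4 and FRO5 bears on each value.

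MT1C, a metallothionein that binds metal ions, had 133, 159 and 142 CPM in flg22 libraries, 74.9, 76.8 and 68.5 CPM in 2-AA libraries, and 73.2, 79.9 and 86.3 CPM in mock libraries. The 2-AA and mock libraries overlapped and flg22 was apart. ATOBGM, a GTPase-like gene 2241 bases from MT1C on the other strand, was a member as well and averaged 6.07 ± 1.45 CPM with flg22, 2.63 ± 0.19 CPM with 2-AA and 2.64 ± 0.416 CPM in mock. IREG2, a vacuolar metal transporter of the ferroportin family, averaged 7.41 ± 1.54 CPM with flg22, 4.16 ± 0.314 CPM with 2-AA and 4.09 ± 0.254 CPM in mock, whereas its relative IREG1 was higher with each treatment, by 1.78 with flg22 and 1.47 with 2-AA (adjusted p = 1.32e-07 and 6.3e-07). UMAMIT47, of an amino acid transporter family, averaged 23.6 ± 4.05 CPM with flg22, 15.8 ± 1.14 CPM with 2-AA and 14.1 ± 1.66 CPM in mock. AT2G04080, a MATE efflux carrier, averaged 5.29 ± 0.844 CPM with flg22, 2.88 ± 0.849 CPM with 2-AA and 2.99 ± 0.589 CPM in mock.

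The 5 cytoskeleton members all peaked in flg22 2. TUB5, a beta-tubulin, had 151, 171 and 161 CPM in flg22 libraries, 106, 95.8 and 104 CPM in 2-AA libraries, and 80.3, 88.9 and 87.6 CPM in mock libraries. The 3 groups did not overlap, with 2-AA in between. MAP18, which destabilises microtubules, averaged 37.5 ± 7.33 CPM with flg22, 26.5 ± 4.12 CPM with 2-AA and 24.6 ± 3.62 CPM in mock. FH19, a formin-like gene, averaged 2.06 ± 0.512 CPM with flg22, 1.09 ± 0.317 CPM with 2-AA and 1.04 ± 0.522 CPM in mock, and its lowest flg22 library was only 1.004 times the highest of the others.

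Metabolism gave 12 members, with ratios to mock from 1.53 to 2.9. ASN1, the asparagine synthetase that responds to darkness and sugar, had 75.4, 119.6 and 62.4 CPM in flg22 libraries, 38.3, 27.9 and 34.7 CPM in 2-AA libraries, and 35.9, 30.1 and 22.6 CPM in mock libraries. The flg22 libraries were apart from the others, flg22 2 being the highest, and the ranges of 2-AA and mock overlapped. Of its relatives, ASN2 had a log2 fold change with flg22 of 0.15 and ASN3 one of -0.80 (adjusted p = 0.44 and 3.32e-06). CYP71B36, a cytochrome P450, averaged 19.5 ± 1.48 CPM with flg22, 12 ± 1.32 CPM with 2-AA and 11 ± 1.38 CPM in mock. AT5G17990 encodes TRP1, an enzyme of tryptophan synthesis, and had 128, 125 and 122 CPM in flg22 libraries, 74.8, 82.2 and 72.5 CPM in 2-AA libraries, and 83.2, 75.8 and 85.9 CPM in mock libraries. LUP1, a lupeol synthase of triterpene metabolism, averaged 19.1 ± 1.55 CPM with flg22, 14.3 ± 1.15 CPM with 2-AA and 12.1 ± 0.891 CPM in mock.

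Genes of other or unknown role made up 25 members. AT3G28510 (chr3:10685470-10687429, plus strand), a P-loop nucleoside triphosphatase gene with 1 exon, had 5.51, 4.66 and 1.82 CPM in flg22 libraries and 0 counts in all 2-AA and mock libraries. Against 3 counts over the group it was at least 120-fold higher with flg22 than with 2-AA and at least 124-fold higher than in mock. AT2G25510 (chr2:10856271-10857217, plus strand), a protein of unknown role, had 443, 229.6 and 371 CPM in flg22 libraries, 43.8, 43.5 and 94.6 CPM in 2-AA libraries, and 43, 42.3 and 80.5 CPM in mock libraries. The flg22 libraries were all higher, and 2-AA 3 and mock 3 lay above the other libraries of their groups. AT3G03150, also of unknown role, averaged 134 ± 5.83 CPM with flg22, 93.6 ± 5.82 CPM with 2-AA and 77 ± 7.1 CPM in mock and was called with 2-AA at 0.27 ± 0.08.

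Within the flg22 group the members did not share 1 highest library. Over all 123, flg22 1 was the highest for 43, flg22 2 for 58 and flg22 3 for 22. For the 12 members with the largest ratio to mock it was flg22 1 in 10, among them PR1, WRKY70, AT5G03350 and CPK22. For the 14 SA output and defence members it was flg22 1 in 8 and flg22 2 in 4. For the 11 photosynthesis members it was flg22 1 in 0 and flg22 2 in 9. The library flg22 2 was also the one with the higher share of chloroplast counts, and the part of that in the photosynthesis members was not tested.

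Separation from the other libraries was narrow for many members. Over the 121 members with a level above 0 outside flg22, the lowest flg22 library was 1.004 to 7.33 times the highest of the other 6, with a median of 1.21. It was at least 1.5 times for 20 members and under 1.1 for 21. In repeats that left out 1 library at a time, 37 members were chosen in 9 of 9, 29 in 8 and 26 in 7. The other members were chosen in 3 to 6 of 9, among them PR1 and AT4G33720 (4 of 9) and CRK6 and AT2G25510 (5 of 9). FRO4, AT5G03350, GASA1, ASN1 and LHCB4.3 were chosen in 8 of 9, and WRKY70, AT4G19750, AT3G28510, RBCS2B, TUB5, MT1C and XYL4 in 9 of 9.

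Genes lay close to each threshold on either side. Just inside the 1.5-fold limit were EMB3003, AT2G28605 and AT1G49975 at 1.501, 1.504 and 1.509 times mock, and just outside it AT1G01080, AT4G24750 and AT3G23760 at 1.499, 1.499 and 1.498. At the upper end of the 2-AA band, AT4G15670, AT3G49670 and RIP4 were inside at 1.249, 1.246 and 1.246 times mock, and DMR6, GSTF10 and PRXR1 outside at 1.251, 1.254 and 1.256. At the lower end, AT2G17060, AT4G23820 and AT3G23175 were inside at 0.8003, 0.8013 and 0.8184, and AT1G21140, MC6 and AT1G44050 outside at 0.7929, 0.7833 and 0.7803.

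Structure and place are given beside those of all genes tested. The members' median transcript was 1619 bases with 3 exons, beside 1718 bases and 4 exons over 20832 genes tested, and 20.3% had 1 exon, beside 16.2%. Chromosomes 1 to 5 held 29, 21, 29, 17 and 27 members, that is 23.6, 17.1, 23.6, 13.8 and 22% of them, beside 26.5, 15.1, 19.8, 15.3 and 23.4% of genes tested. The members AT5G48290, a heavy-metal-associated domain gene, and AT5G48320, a C1-domain gene, lay 11830 bases apart with 2 annotated genes between. In all, 33 members overlapped another annotated gene, 5 of them on the same strand.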

How the data were processed

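Whole-seedling RNA was sequenced after flg22, 2-AA or mock, with 3 libraries a group. The authors' deposited table holds whole-number read counts, not normalized, for 32833 loci. Per the submitters' processing notes, Trimmomatic 0.36, HISAT2 and edgeR were used with the TAIR10 build; their settings, the counting program and whether it used strand are not stated there.

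Counts were scaled with TMM over the whole table to CPM, on which members were chosen. One quasi-likelihood fit (edgeR 4.0.16 in R 4.3.3, glmQLFit and glmQLFTest) held all 9 libraries with group means, over 21059 genes that passed filterByExpr (minimum count 10, minimum total 15). P-values were two-sided, adjusted by Benjamini-Hochberg over all genes tested, and called under 0.05. The SE of a log2 fold change was worked back from the test, as its absolute value divided by the square root of the F statistic. An adjusted p in the text is from this fit. The scripts were tested on simulated data. The design text calls the libraries biological replicates without naming cultures, so the p-values reflect only how far these libraries vary, which may be technical. No pair of libraries in a group was alike within sampling noise (chi-square per degree of freedom 5.62 to 31.8). Floors cover counting error only.

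Coordinates, exons and promoters came from RefSeq TAIR10.1, in which 32548 loci matched by code. Of 223 entries in 23 gene lists, 215 were kept, since 8 did not match the reference name.

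The members, lists and roles were chosen with earlier results of these data known. The 52 members named by rule are the 12 with the largest ratio to mock, the 12 with the highest flg22 mean, members on a list, up to 6 of each of 6 annotation classes (receptor, transcription factor, disease resistance, peroxidase, cytochrome P450, transporter) and those nearest a threshold; other members were named for their role after their values were seen.

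Alternatives were DESeq2 1.42.0, RLE factors, no low-count filter, a replicate block, other thresholds, and leaving out libraries.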

Additional observations from a re-analysis of the deposited data

How the results depend on the processing

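The number of members followed the thresholds. It was 123 as chosen, 28 when the flg22 mean had to be 2 times mock, 44 with a 2-AA band of 0.9 to 1/0.9, and 348 with a band of 0.67 to 1.5. Other settings gave 96 to 152 genes: RLE factors 127 (122 of them shared with the 123), plain CPM 150 (112 shared), a minimum of 1 CPM 139 and of 5 CPM 96, and no condition on single libraries 152. Requiring calls in flg22 against mock and against 2-AA gave 99, as did requiring no call with 2-AA against mock. Settings chosen after seeing the data were that last one, TMM over the filtered genes (125) and leaving out the library of highest chloroplast share of each group (147). Leaving out 1 library at a time gave 118 to 162 genes, of which 87 to 113 were among the 123.

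Calls over all genes lay between 11293 and 12505 for flg22 against mock (12457 as reported), between 12060 and 13198 for 2-AA against mock (13103), and between 2204 and 3392 for flg22 against 2-AA (3317) when 1 library was left out. Without the libraries of highest chloroplast share the last count was 2090; the cause was not tested, and those fits held fewer samples. DESeq2 called 12408, 13060 and 3701. With the replicate number as a block the counts were 12264, 12918 and 3082. Deviations of same-numbered libraries correlated at -0.13 to 0.19 and those of others at -0.15 to 0.22. With 3 libraries a group these values cannot show whether same-numbered libraries were handled together, which was not tested.

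For the 52 members named by rule, 728 values were recomputed in each comparison with mock. Of these, 719 moved by at most 1 SD for flg22 and 709 for 2-AA, with 9 and 19 moving further. The SD was the larger of those of the treated and the mock libraries, on the log2 scale. Among values called in the main fit 0 changed sign, and the others were not checked for it. For PR1, not called with 2-AA, the log2 fold change went from 0.20 to -2.12 without 2-AA 3. Depth limits most the 48 members with a flg22 mean under 10 CPM.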
